A study of Mus musculus with 4 samples.

Results

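Of 8883 cells profiled from mouse bone marrow, 1558 carried 10 or more transcripts of 7 genes that are made in G2 and mitosis, and these cells are described here as G2 and mitosis cells. The gate genes were Ube2c, Ccnb1, Cdc20, Cenpa, Cenpf, Hmmr and Nusap1, and transcripts were counted as unique molecular identifiers (UMIs), the tags that mark each captured RNA molecule once. A further 4562 cells held 0 gate UMIs and served as the reference, and 2763 cells held 1 to 9. The cells were lymphoid-primed multipotent progenitors (LMPPs), an early blood progenitor with lymphoid and myeloid potential, taken by fluorescence-activated sorting from C57BL/6 mice.

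There were 4 groups with 1 library each. Control mice expressed RBPJ throughout. Mice of the group RBPJ uninduced lacked it, by their label. Mice of the groups RBPJ 3 days induced and RBPJ 6 days induced began without RBPJ and were made to express it with doxycycline, injected into the peritoneum at 2 mg/ml and then given in drinking water at 1 mg/ml. The same doses are listed for all 4 samples, control and uninduced included. Whether mice of those first 2 groups in fact received doxycycline is not stated. The labels do not give the number or age of the mice or the alleles, or name the promoter that drives the induced gene. Because each group had 1 library, no test between single groups was made, and a difference between libraries cannot be told apart from a difference between animals or preparations. Throughout, 4 values in a row are for control, uninduced, 3 days and 6 days.

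RBPJ is the DNA-binding protein of the Notch pathway: a Notch receptor cut on contact with a ligand releases a fragment that joins RBPJ in the nucleus and turns on targets such as Hes1. A progenitor that divides copies its DNA in S phase, grows in G2 and separates the copies in mitosis. Cyclin B (Ccnb1) with its kinase drives entry into mitosis. Cdc20 and the ubiquitin-conjugating enzyme Ube2c act with the anaphase-promoting complex, which marks cyclin B and other proteins for destruction at mitotic exit. Cenpa is the histone H3 variant that marks centromeres, Cenpf binds the kinetochore, and Hmmr and Nusap1 bind spindle microtubules. Many genes of this phase are held back in resting cells by a repressor complex that binds the cell cycle homology region (CHR), a short motif near the start site, and many are driven through CCAAT boxes upstream of it.

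The promoters of 4 gate genes are shown because the genes that select these cells share these motifs unequally. Each line gives the 120 bases before the start site from RefSeq on GRCm38.p6, 5′ to 3′ on the gene's strand. Capitals mark the CHR (TTTGAA or its reverse complement TTCAAA) and the CCAAT box (CCAAT or ATTGG).
Ube2c promoter, chr2:164769809-164769928, plus strand: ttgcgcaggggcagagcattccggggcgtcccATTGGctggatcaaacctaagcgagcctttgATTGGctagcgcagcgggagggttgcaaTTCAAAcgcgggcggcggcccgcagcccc
Cdc20 promoter, chr4:118437344-118437463, minus strand: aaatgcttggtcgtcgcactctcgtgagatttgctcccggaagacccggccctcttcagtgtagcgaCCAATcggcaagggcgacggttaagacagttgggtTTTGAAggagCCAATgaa
Ccnb1 promoter, chr13:100786487-100786606, minus strand: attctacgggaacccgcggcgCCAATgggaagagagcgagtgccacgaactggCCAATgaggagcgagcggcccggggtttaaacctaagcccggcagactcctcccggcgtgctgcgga
Hmmr promoter, chr11:40733438-40733557, minus strand: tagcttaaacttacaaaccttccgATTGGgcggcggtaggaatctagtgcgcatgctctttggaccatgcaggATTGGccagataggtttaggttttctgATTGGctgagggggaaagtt
Ube2c and Cdc20 held a CHR within these windows, 29 and 18 bases before the start site, and CCAAT boxes beside it. In Ccnb1 no CHR was found in the 300 bases of the table, and 2 CCAAT boxes were. In Hmmr the CHR lay 8 bases after the start site, outside the printed window, downstream of 3 CCAAT boxes. Within 100 bases centred on the start site, 5 of the 7 gate genes held a CHR, against 5.72% of all 27025 genes. Among the other genes of the mitotic lists used below, 115 in number, 87 matched the table and 41 of them (47.1%) held a CHR there. Of 54 genes of DNA replication and S phase, 41 matched and 3 (7.32%) held one. CCAAT boxes did not differ in this way. In the 250 bases before the start they were found in 60.9% of the matched mitotic genes, 63.4% of the matched S phase genes and 37.5% of all genes. A motif match is a description of letters and not of binding.

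Levels are given as CPM, the UMIs of a gene per 1000000 UMIs of the same group of cells. The gate genes were selected on and carry no test. Ube2c stood at 721, 759, 826 and 829 CPM in the G2 and mitosis cells. Cenpa stood at 522, 540, 496 and 510 CPM, Nusap1 at 420, 418, 393 and 414 CPM, and Cenpf at 286, 302, 275 and 293 CPM. Ccnb1 stood at 172, 151, 202 and 157 CPM, Cdc20 at 208, 197, 247 and 179 CPM, and Hmmr at 107, 103, 106 and 109 CPM. All 7 were at 0 in the reference cells by the rule. Ccnb1 and Cdc20 were highest at 3 days, at 1.34 and 1.25 times the uninduced level, given as a description because the cells were chosen on these UMIs. The other 5 differed from the uninduced library by less than 10% in both induced libraries. Free RNA also carried the gate genes: in barcodes of 10 to 100 UMIs outside the called cells Ube2c stood at 315, 211, 215 and 313 CPM, below its level in the G2 and mitosis cells of every library.

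G2 and mitosis cells made up 19.4% of the control library (522 of 2693 cells, Clopper-Pearson 95% interval 17.9% to 20.9%, which like all intervals here covers counting error only) and 15.5% of the uninduced library (428 of 2769, 14.1% to 16.9%). They made up 18.7% at 3 days (241 of 1292, 16.6% to 20.9%) and 17.2% at 6 days (367 of 2129, 15.7% to 18.9%). The uninduced library had the lowest share and also the lowest depth, with a median of 6774 UMIs per cell against 7920, 7641.5 and 7353 in control, 3 days and 6 days. Among cells of 4700 or more UMIs, each thinned to 4700, the shares were 12.7%, 11.9%, 12.8% and 11.9%, with overlapping intervals. These rest on 2342, 2093, 1088 and 1755 cells. Shallower cells were left out. They included 266, 534, 162 and 282 cells with 0 gate UMIs, and 4, 5, 3 and 5 G2 and mitosis cells. The thinned shares thus have a smaller base, cut most in the uninduced library. A gate set as 0.1% of a cell's UMIs gave 17.8%, 15.1%, 18.8% and 16.5%. The order of the libraries at full depth was not kept after thinning, where the depth and the cells counted both changed. With 1 library a group it was not tested.

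**Figure D1:**
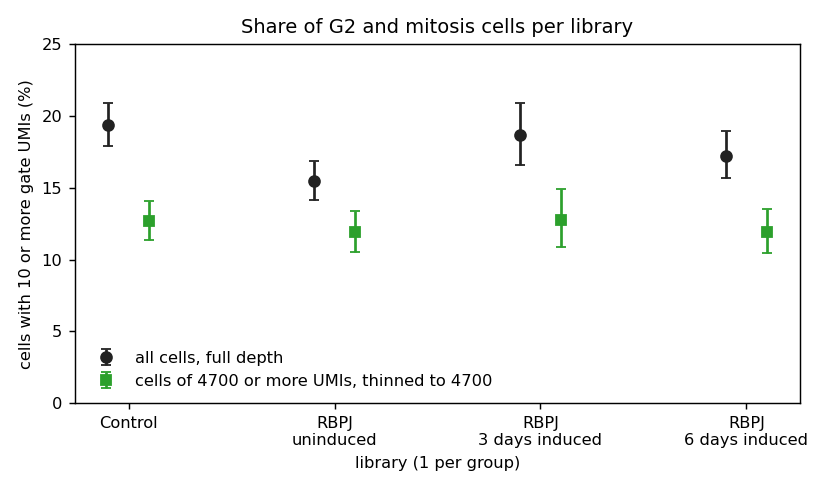
Share of cells with 10 or more gate UMIs (y axis, %) in each library (x axis), at full depth (circles). Squares are cells of 4700 or more UMIs, thinned to 4700, with shallower cells left out. Bars are 95% Clopper-Pearson intervals. The uninduced library is lowest at full depth (15.5%), and the thinned shares lie between 11.9% and 12.8%.

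The libraries held 23504158, 20952799, 10647894 and 17455692 UMIs in cells. G2 and mitosis cells were the deeper cells, with median UMI counts of 12797.5, 11446.5, 11839 and 12663 against 6170, 5496, 6106 and 5914 in the reference, so each test below was also run on thinned cells. A total of 49 barcode sequences occurred in more than 1 library. A doublet caller (Scrublet) marked 25 of the 8883 cells, so few that it cannot be taken to have worked, and no cell was removed. Among the 1558 G2 and mitosis cells, 104 (32, 34, 15 and 23) carried 20 or more UMIs of markers of another cell type, beside 237 of all 8883 cells. Results that rest on such cells are given without them too. At 5 or more such UMIs, the limit first planned, 886 G2 and mitosis cells (56.9%) and 1237 reference cells (27.1%) were marked. The limit of 20 was chosen after seeing the data, and these counts are not corrected for depth.

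The sort label was checked against its markers. Flt3, the cytokine receptor that defines LMPPs, stood at 221, 184, 229 and 193 CPM in the G2 and mitosis cells and 234, 209, 213 and 213 CPM in the reference. Cd34, a progenitor surface sialomucin, stood at 501, 455, 486 and 402 CPM against 511, 489, 504 and 440. Kit, the stem cell factor receptor, stood at 56.0, 51.3, 44.0 and 44.7 CPM against 72.3, 62.5, 50 and 58. None of the 3 differed by 1.5-fold. Another surface gene of these progenitors, Ly6a, which encodes Sca-1, did pass as lower in the G2 and mitosis cells. Its values are given with the LMPP surface genes below. T cell markers (Cd3e, Cd3d, Cd3g, Trbc2) summed to at most 0.68 CPM in the G2 and mitosis cells of any library, and dendritic markers to at most 2.48 CPM. Granulocyte-monocyte progenitor markers (Mpo, Elane, Prtn3, Ctsg, Ms4a3) summed to 472, 460, 565 and 298 CPM against 397, 371, 407 and 362 in the reference. Erythroid markers (Gata1, Klf1, Car1, Car2, Epor) summed to 251, 279, 261 and 261 CPM against 268, 339, 305 and 240. Natural killer markers (Nkg7, Klrd1, Ncr1, Gzma) summed to 161, 157, 201 and 133 CPM against 181, 176, 193 and 168. Megakaryocyte markers summed to 3.93, 4.70, 5.08 and 463 CPM. Neutrophil markers (S100a8, S100a9, Ngp, Camp, Ltf, Lcn2) summed to 915, 7033, 5528 and 2995 CPM against 1086, 1761, 2758 and 2881 in the reference, and 99.5% of the S100a8 UMIs of the uninduced G2 and mitosis cells lay in 10 cells.

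The rule sets a threshold in a continuum. The 145 cells just outside it, with 8 or 9 gate UMIs, had a summed level of the 17 mitotic entry genes (kinases, cyclins and phosphatases) of 1517 CPM, the 122 cells just inside, with 10 or 11, had 1726 CPM, the 457 cells with 40 or more had 3289 CPM, and the reference had 393 CPM. The cells just inside the threshold still carried S phase transcripts: the 54 DNA replication genes summed to 8103 CPM at 8 or 9 gate UMIs, 7992 CPM at 10 or 11, 5565 CPM at 40 or more and 3521 CPM in the reference. The clamp subunit Pcna fell along the gate in each library, from 195, 128, 202 and 196 CPM at 10 or 11 gate UMIs to 57.4, 53.2, 53.4 and 60.6 CPM at 40 or more. Plk1, a mitotic kinase outside the gate, went from 29.6, 11.9, 12.3 and 16.9 CPM to 97.4, 85.8, 121 and 87.8 CPM over the same step. Cells at the lower end of the gate thus carried more S phase transcripts than those at its upper end.

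**Figure D2:**
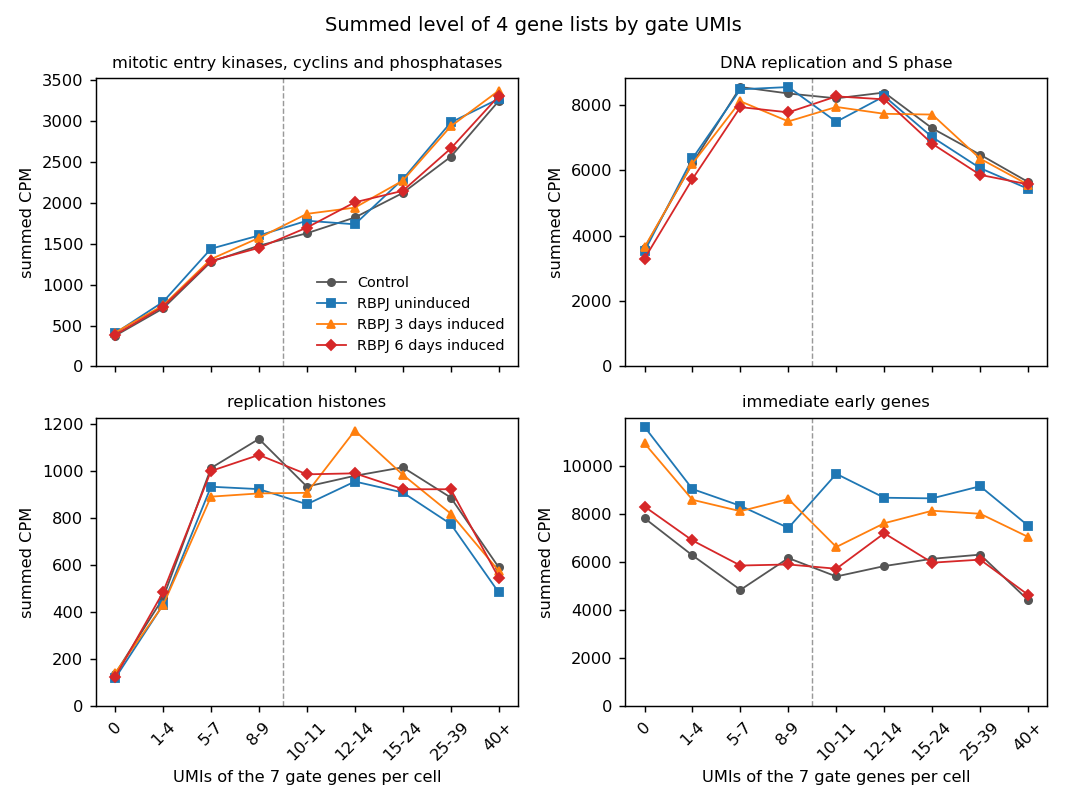
Summed CPM (y axes) of mitotic entry genes, DNA replication genes, replication histones and immediate early genes by the number of gate UMIs per cell (x axis, ordered bins), with 1 line per library; the dashed line is the threshold of 10. Mitotic entry genes climb throughout (393 CPM at 0 to 3289 CPM at 40 or more over all libraries), while DNA replication genes are higher around the threshold than at either end.

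Genes were compared between the G2 and mitosis cells and the reference with edgeR's quasi-likelihood test on UMIs summed over the cells of each class in each library, with the library as a block. A gene passed at a Benjamini-Hochberg adjusted p under 0.05 and a fold of 1.5 or more. Outside the gate, 804 of 10644 genes passed as higher (7.55%) and 1045 as lower (9.82%), with a median log2 difference of -0.01 over all genes tested. In thinned cells 731 were higher and 654 lower, and with DESeq2 696 and 692. Genes on cell cycle lists follow the gate by their nature, so their values are a description and no p is given. Counts of called genes on those lists use the same threshold and are a description too. The cells were chosen on genes of the same phase, so these counts are no independent support. Differences are log2 ratios from that fit.

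Mitotic entry and its machinery came first. Of 17 entry kinases, cyclins and phosphatases, all passed the filter on low counts and 15 were called higher, with a median log2 difference of 3.51. Ccnb2, the other B-type cyclin of these cells, stood at 298, 282, 308 and 285 CPM against 4.49, 4.22, 6.98 and 3.09 CPM in the reference. Plk1 stood at 62.4, 56.8, 74.2 and 55.7 CPM against 0.58, 0.44, 1.63 and 0.74 CPM. Cdc25c, the phosphatase that activates the cyclin B kinase, stood at 43.3, 43.5, 51.2 and 41.4 CPM against at most 0.78 CPM. No library overlapped between the classes for these 3 genes, a description because the cells were chosen on genes of the same phase.

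All 13 genes of the spindle checkpoint and chromosomal passenger complex were called higher (median 3.68). Birc5, the passenger subunit survivin, stood at 403, 433, 430 and 427 CPM against 13.2, 16.9, 16.8 and 13.7 CPM. Its partner Cdca8 differed by 4.5 on the log2 scale and Sgol2a, which protects centromeric cohesin, by 4.95. All 24 kinetochore and centromere genes were called higher, with a smaller median of 2.11. Among the highest were Casc5 (4.38), a kinetochore scaffold, and Cenpe (4.30), a kinetochore motor at 130, 114, 122 and 112 CPM against 6.45, 6.21, 5.59 and 4.86 CPM.

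Of 32 spindle motors and microtubule regulators, 31 were tested and 29 were called higher (median 4.11). Kif2c, a kinesin that shortens microtubules, differed by 6.39, Kif18b, a kinesin of the plus ends, by 5.79, and Aspm, a spindle pole protein, by 5.71. Of 17 genes of condensin, cohesin, topoisomerase and the chromosome surface, 15 were called higher (median 2.30). Mki67, which coats mitotic chromosomes, stood at 218, 200, 174 and 186 CPM against 6.56, 8.77, 5.82 and 6.48 CPM. Espl1, the protease that opens cohesin, differed by 3.76 and Esco2, which acetylates it, by 3.68. Of 14 cytokinesis genes, 13 were tested and 9 were called higher (median 2.74), Racgap1 of the central spindle by 4.20.

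The anaphase-promoting complex and its exit regulators split. Only 8 of 21 tested genes were called higher and the median was 0.43. Those 8 included the regulators Fbxo5 (3.03), an inhibitor of the complex, Fzr1 (2.18), its G1 activator, and Ube2s (1.81), its chain-building enzyme at 876, 938, 879 and 906 CPM against 238, 263, 258 and 238 CPM.

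**Figure D3:**
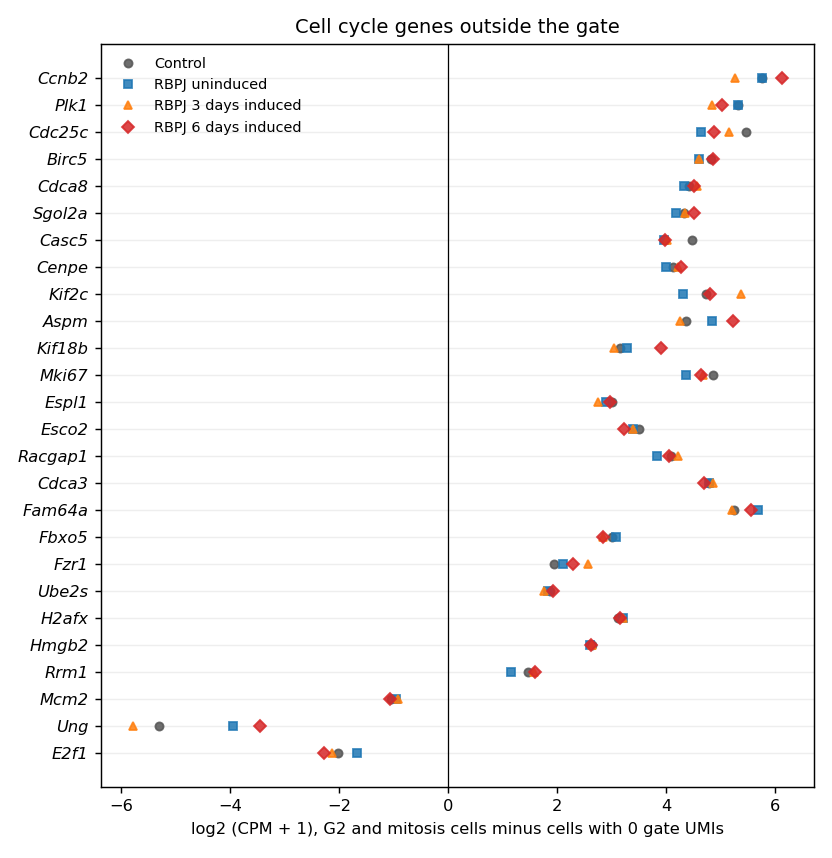
Difference in log2 (CPM + 1) between G2 and mitosis cells and cells with 0 gate UMIs (x axis) for named cell cycle genes outside the gate (y axis), with 1 point per library. The 4 libraries lie close together for most genes, mitotic genes lie to the right of 0, and the G1 and early S phase genes Ung, E2f1 and Mcm2 to the left.

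Genes of G1 and S phase entry lay the other way. Of 15, 7 were called lower and 1, E2f2, higher, with a median of -0.40. E2f1, a transcription factor that opens S phase, stood at 10.9, 11.2, 7.79 and 7.66 CPM in the G2 and mitosis cells against 47.0, 37.6, 37.5 and 40.8 CPM. Ccnd1, the D-type cyclin that answers growth signals, stood at 11.5, 13.1, 15.9 and 8.49 CPM against 40.1, 40.3, 39.3 and 36.2 CPM. Ccnd2 stood at 225, 190, 227 and 243 CPM against 348, 316, 336 and 359 CPM, whereas Ccnd3 differed by 0.21 and was not called. The 3 D-type cyclins therefore differed by -1.76, -0.67 and 0.21 on the log2 scale. Cells with gate UMIs were compared with a mixed reference, and 1521 of the reference cells carried 20 or more S phase UMIs. They are called S phase cells below for short. The 20 UMIs were not corrected for depth, so deeper cells qualify more readily, and their phase was not tested. Against these cells alone, a comparison added after the data were seen, Ccnd1 differed by -2.05 and Ccnd2 by -0.72.

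DNA replication genes were mixed: 17 of 54 were called higher and 7 lower, with a median of 0.14. Hmgb2, a chromatin protein, differed by 2.59 and Rrm1, a subunit of ribonucleotide reductase, by 1.42. Mcm2, a subunit of the replicative helicase, differed by -1.07. Ung, which removes uracil from DNA, was the lowest at 1.45, 5.09, 0.68 and 6.42 CPM against 95.2, 92.8, 90.6 and 79.9 CPM, with 53.6% of its UMIs in 10 cells. Against the S phase cells the list turned: 1 gene was called higher and 25 lower, with a median of -0.43. Replication histones, whose messenger RNAs are made during S phase, were higher in both comparisons. Against the full reference 36 of 36 tested genes (of 41) were called higher with a median of 2.80, and against the S phase cells 35 of 35 with a median of 2.60. The cells called S phase cells were thus low in these transcripts beside the G2 and mitosis cells. Their name rests on the UMI count of the DNA replication list alone. These genes are close copies, so single members are uncertain and are given as a group. Their summed level was highest near the threshold, at 923 CPM at 10 or 11 gate UMIs against 553 CPM at 40 or more and 129 CPM in the reference. Of the 25 other histone and chromatin genes, 13 were called higher and none lower. H2afx, the variant marked at DNA breaks, stood at 790, 794, 798 and 770 CPM against 90.4, 85.3, 85 and 86 CPM.

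Outside the cell cycle lists, 624 of 10378 genes passed as higher and 1031 as lower. Several of the highest are known cell cycle genes that were on no list and follow the gate in the same way. Cdkn3, a phosphatase that acts on cyclin-dependent kinases, stood at 71.4, 80.3, 99.3 and 82.0 CPM against 1.27, 0.78, 1.63 and 0.44 CPM. Nek2, a centrosome kinase (4.92), Mxd3, a partner of Max (4.88), Neil3, a DNA glycosylase (4.19), Gas2l3, a cytoskeletal linker (3.95), Pbk, a mitotic kinase (3.37), Cenpl, a centromere protein (3.29), Shcbp1 (3.25) and C330027C09Rik (3.69) were alike. Lockd, a noncoding RNA made next to the Cdkn1b gene, stood at 375, 404, 386 and 411 CPM against 27.5, 27.1, 26.8 and 29.0 CPM. Cdkn1b itself was not called, at 26.0, 30.4, 27.8 and 25 CPM against 24.4, 26.6, 22.1 and 28.6 CPM (log2 difference 0.04, edgeR adjusted p 0.71).

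Of 25 tubulin and actin cytoskeleton genes, 22 were tested, 8 rose against the background of 7.55%, none fell and 14 did not pass, with a median of 0.00. Tubb4b, a beta-tubulin, stood at 445, 410, 548 and 391 CPM against 63.7, 64.8, 71.5 and 61.5 CPM, a difference of 2.71 (SE 0.0473). Tuba1b and Tuba1c rose by 1.94 and 3.33, but 38% and 44% of the sequence of their transcript ends occurs in other genes, so reads may be split between them. Of 23 nuclear envelope and pore genes, 13 rose, none fell and 10 did not pass (median 0.59). Lmnb1, the lamin of proliferating nuclei, stood at 257, 222, 263 and 218 CPM against 84.3, 76.8, 88.0 and 70.7 CPM (1.54, SE 0.0432). Rangap1, which sets the Ran gradient, rose by 1.84 and the pore subunit Nup37 by 1.76. With the S phase cells as reference, 7 of each list rose. Both lists hold genes that a dividing cell uses and that may follow the gate. Their values and counts are therefore a description and no independent support.

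Inhibitors of cyclin-dependent kinases went in both directions. Of 15 such genes and genes of quiescence, 13 were tested, 4 rose and 3 fell, beside 7.55% and 9.82% over all genes. Cdkn2c, the G1 kinase inhibitor p18, stood at 75.7, 67.6, 50.1 and 52.2 CPM against 15.2, 16.6, 10.0 and 11.8 CPM (2.14, SE 0.0795). It may follow the gate as a cell cycle gene, so no p is given. Ccng2, an unusual cyclin linked to arrest, rose by 1.47 and Cdkn2d, or p19, by 0.89. Cdkn1a, or p21, stood at 83.7, 73.1, 56.9 and 82.6 CPM against 88.8, 82.3, 55.4 and 89.2 CPM and did not pass. The antiproliferative genes Btg1 and Btg2 fell. Btg2 stood at 158, 223, 231 and 184 CPM against 279, 393, 430 and 333 CPM (-0.89, SE 0.0413, edgeR adjusted p 6.5e-16). Against the S phase cells Btg2 differed by -0.29 and Btg1 by -0.12, and neither passed, while Cdkn2c still rose by 1.72. Among 15 p53 targets 11 were tested, and 3 fell on the log2 scale: the cell death gene Bbc3 by 1.08, the stress gene Sesn2 by 1.04 and Phlda3 by 0.73.

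Of 36 immediate early genes, which are switched on within minutes by growth factors or stress, 18 fell against a background of 9.82%, none rose and 18 did not pass, with a median of -0.58. Socs3, a feedback inhibitor of cytokine signalling, stood at 28.6, 31.9, 16.6 and 30 CPM against 114, 86.8, 40.5 and 70.8 CPM. Atf3, a stress-induced factor, stood at 6.4, 25.1, 24.7 and 7.66 CPM against 18.3, 67.8, 58.4 and 33.7 CPM. Within each library the G2 and mitosis cells were lower for both genes. Klf2, on the same list, was not lower throughout, with ratios of 1.24 (1.15 to 1.33), 0.973 (0.930 to 1.02), 0.855 (0.803 to 0.910) and 0.801 (0.734 to 0.874). Against the S phase cells 5 of 35 fell and 1 rose (median -0.23), so most of the calls were lost with that reference.

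Outside the cycle lists, the 12 lowest passing genes at a mean of 20 CPM or more were named whatever their function. Among them Ccl3, a chemokine, stood at 163, 223, 143 and 242 CPM against 582, 872, 384 and 940 CPM (-1.87, SE 0.0552, edgeR adjusted p 2.4e-20). Ccl4, its neighbour in function, fell by 1.71 on the log2 scale. Wfdc17, a small secreted protein, stood at 133, 148, 128 and 129 CPM against 596, 630, 461 and 683 CPM (-2.19, SE 0.0552, edgeR adjusted p 8.1e-22), and Wfdc18 fell by 2.78 on the log2 scale. Ltb, which encodes lymphotoxin beta, stood at 28.6, 38.4, 41.3 and 26.7 CPM against 111, 135, 81.0 and 123 CPM. Padi4, an enzyme that converts arginine to citrulline, fell by 1.70 on the log2 scale, and Lst1 and Zmynd19 by 1.36 each. Ccl3 and Wfdc17 were also lower than in the S phase cells, by 1.21 and 1.33 on that scale.

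Over all genes 7.55% rose and 9.82% fell, to be read beside each count that follows. Of 18 glycolysis genes 6 fell and none rose. Aldoa, the aldolase, stood at 102, 106, 133 and 97.1 CPM against 287, 286, 300 and 255 CPM (-1.43, SE 0.047, edgeR adjusted p 2.5e-19), and Ldhb fell by 0.93 on the log2 scale. None of 64 nuclear genes of oxidative phosphorylation passed, nor did any of 13 mitochondrial transcripts or of 81 tested cytosolic ribosomal protein genes, at an adjusted p under 0.05 and 1.5-fold in edgeR. Among 25 ribosome biogenesis genes only Gnl3, a nucleolar GTPase, passed, as lower by 0.76 on the log2 scale. Of 18 heat shock genes Hspa4l alone rose, by 0.80. The integrated stress response list gave 2 higher and 4 lower of 21. The interferon list gave 1 higher and 6 lower of 29; the gene that rose, Ifi27l2a, stood at 172, 276, 266 and 351 CPM against 107, 143, 162 and 187 CPM.

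**Figure D4:**
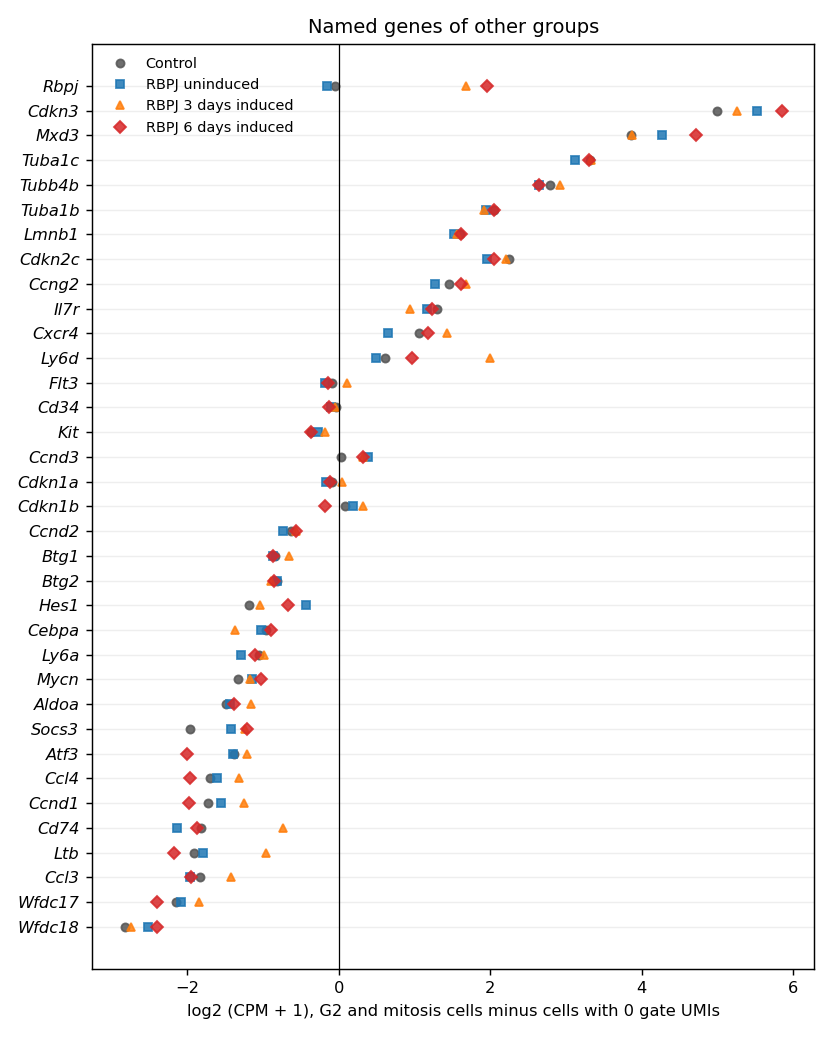
Difference in log2 (CPM + 1) between G2 and mitosis cells and cells with 0 gate UMIs (x axis) for named genes of other groups and the D-type cyclins (y axis), with 1 point per library. Rbpj is near 0 in the control and uninduced libraries and to the right of 0 in both induced libraries. The surface genes Flt3, Cd34 and Kit lie near 0, and Ly6a lies to the left.

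Lineage genes divided by direction. Lymphoid priming genes, which LMPPs switch on before they commit, gave 8 higher (background 7.55%) and 2 lower (background 9.82%) of 25 tested. Il7r, the receptor for the lymphoid cytokine interleukin 7, stood at 44.5, 28.8, 23.4 and 54.4 CPM against 17.5, 12.3, 11.6 and 22.7 CPM. Its level was higher in the G2 and mitosis cells of every library (1.21, SE 0.0863, edgeR adjusted p 7e-12), and the difference was 1.28 without cells holding 20 UMIs of other types and 0.81 against the S phase cells. Rag1, a recombinase of antigen receptor genes, rose by 1.22 from at most 2.21 CPM. Ly6d, an early B lineage surface gene, stood at 12.8, 26.3, 20.7 and 33.5 CPM against 8.06, 18.4, 4.42 and 16.6 CPM (0.84, edgeR adjusted p 1.3e-05). 46.3% of its UMIs lay in 10 cells, and against the S phase cells it differed by 0.46 and did not pass (edgeR adjusted p 0.068). Ccr9, a chemokine receptor of thymus-seeking cells, went the other way at 8.72, 11, 7.79 and 11.4 CPM against 17.8, 18.4, 14.2 and 26.2 CPM, and Cd7, another gene of that early state, fell by 1.67 on the log2 scale. Ccr9 changed sign against the S phase cells, to 0.42.

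The summed level of the 4 lymphoid markers Il7r, Ly6d, Dntt and Rag1 was 1064, 934, 1185 and 1225 CPM in the G2 and mitosis cells and 685, 601, 681 and 762 CPM in the reference. Nearly all of it was Dntt, the terminal transferase of antigen receptor genes, at 1004, 877, 1138 and 1133 CPM against 658, 569, 664 and 721 CPM (0.62, SE 0.0355 in edgeR), named here after its values were seen. Read the other way, thinned cells with 2 or more UMIs of these markers were G2 and mitosis cells in 14.7%, 13.7%, 15.6% and 14.9% of cases. Cells with none of them were so in 10.5%, 8.81%, 9.80% and 6.59%. The intervals of the pair did not overlap in the uninduced library (11.8% to 15.8% against 6.59% to 11.5%) and at 6 days (12.9% to 17.1% against 4.17% to 9.80%). They overlapped in the control library (12.9% to 16.7% against 8.10% to 13.3%) and at 3 days (13% to 18.6% against 6.38% to 14.2%). Erythroid markers gave the same order in every library, at 17.5%, 12.97%, 15.96% and 13.6% against 11.2%, 10.4%, 10.7% and 9.93%. Their intervals were apart in the control library (14.7% to 20.6% against 9.36% to 13.2%) and overlapped in the others. Granulocyte-monocyte progenitor and natural killer markers gave the opposite order in every library but 3 days. The order was thus not particular to lymphoid markers.

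Stem cell and multipotent progenitor genes gave 9 lower and none higher of 21 tested, with a median of -0.47, beside 9.82% and 7.55% over all genes. Mycn, a growth regulator, stood at 20.1, 23.7, 16.9 and 27.1 CPM against 51.9, 53.7, 39.3 and 56.4 CPM, and the endothelial protein C receptor gene Procr fell by 1.45 and the homeobox gene Nkx2-3 by 1.09 on the log2 scale. With the S phase cells as reference 2 of 21 fell (median -0.17). The share of G2 and mitosis cells among cells with 2 or more thinned UMIs of the stem cell markers was 14.8%, 9.83%, 10.8% and 7.53%, against 11.1%, 13.3%, 13.5% and 13.7% among cells with none. The control library thus had the opposite order to the other 3, a difference that was not tested.

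LMPP receptors and surface genes gave 4 higher (16.7%) and 3 lower (12.5%) of 24, beside 7.55% and 9.82% over all genes, so the lower share is near the background. Among the higher were Cxcr4, the receptor for the marrow chemokine Cxcl12, at 16.7, 10.2, 14.9 and 18.6 CPM against 7.48, 6.10, 4.89 and 7.65 CPM (1.11, SE 0.139, edgeR adjusted p 2.4e-07), and Spn, or CD43, at 84.9, 78.6, 78.9 and 77.2 CPM against 55.5, 54.5, 45.4 and 45.5 CPM (0.61, SE 0.0578, edgeR adjusted p 1.8e-09). Lower were Ly6a, which encodes the stem cell antigen Sca-1, and the myeloid receptors Csf3r and Cd33. Ly6a stood at 47.2, 45.3, 53.9 and 48.6 CPM against 99.4, 112, 108 and 106 CPM (-1.18, SE 0.0561, edgeR adjusted p 1.1e-15), with 23% of its transcript end shared with related genes. Ly6a was also lower than in the S phase cells, by 0.77 on the log2 scale.

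Myeloid progenitor genes gave 4 higher and 2 lower of 18, beside 7.55% and 9.82% over all genes. Ctsg, a granule protease, stood at 60.6, 59.6, 75.9 and 41.0 CPM against 17.4, 21.0, 31.4 and 18.1 CPM (1.43, edgeR adjusted p 2.2e-13) and at a difference of 0.95 without cells holding 20 UMIs of other types. Cebpa, a factor of myeloid commitment, stood at 18.0, 15.5, 11.5 and 15.9 CPM against 35.9, 32.6, 31.4 and 30.3 CPM. Genes of dendritic cells and major histocompatibility complex class II gave 6 lower and 1 higher of 13. Cd74, the invariant chain, stood at 49.0, 53.1, 64.4 and 48.0 CPM against 174, 237, 108 and 178 CPM (-1.80, SE 0.1, edgeR adjusted p 3.8e-14), and H2-Eb1 fell by 1.35 on the log2 scale. At 3 days Cd74 was 0.597 of the reference level, against 0.281, 0.224 and 0.270 in the control, uninduced and 6-day libraries. With the S phase cells as reference 2 of the list fell.

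Genes of mature cell types rested on few cells. Over all genes 7.55% passed as higher and 9.82% as lower. Of 10 tested B lineage genes 7 passed as higher, but Vpreb3 and Igll1 had 97% and 100% of their UMIs in 10 cells. Ebf1, the B lineage factor, had 36.5% there and stood at 18.6, 13.5, 26.8 and 37.7 CPM against 3.11, 4.99, 6.75 and 13.7 CPM. Among 15 tested neutrophil and monocyte genes 5 passed as higher and 3 as lower, and without cells holding 20 UMIs of other types none of 9 was higher and 2 were lower. Of 12 tested erythroid and megakaryocyte genes 6 passed as higher, led by Hba-a1, with 98.7% of its UMIs in 10 cells, and Pf4, with 99.7%. The remaining lists gave 1 higher and 2 lower of 6 T lineage genes, 1 and 2 of 6 natural killer and innate lymphoid genes, 1 higher of 1 basophil and mast cell gene, 1 lower of 5 stromal genes, and none of 7 nuclear noncoding RNAs in edgeR at the threshold above.

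Rbpj itself differed between libraries in its relation to the gate. In the control library it stood at 18.3 CPM in the G2 and mitosis cells and 18.9 CPM in the reference, and in the uninduced library at 10.4 and 11.7 CPM. At 3 days it stood at 807 CPM in the G2 and mitosis cells and 251 CPM in the reference, a ratio of 3.21 (conditional exact 95% interval 2.99 to 3.45), and at 6 days at 875 and 225 CPM, a ratio of 3.88 (3.66 to 4.12). In the control library the ratio was 0.970 (0.763 to 1.23) and in the uninduced library 0.891 (0.628 to 1.25). In both induced libraries Rbpj was thus at a higher CPM in the G2 and mitosis cells than in the reference, and in the other libraries the interval of the ratio included 1.

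A term for the difference of this ratio between the 2 induced and the 2 other libraries was added to the edgeR fit after the data were seen. For Rbpj it was 1.88 on the log2 scale (SE 0.15, adjusted p 2.6e-07). Of 10644 genes, 3 (0.0282%) passed an adjusted p under 0.05, and 414 had an unadjusted p under 0.05. The others were Pf4, with all its G2 and mitosis UMIs at 6 days in 10 cells, and the gene model Gm26737. The Rbpj term was 2.07 in thinned cells, 1.92 without cells holding 20 UMIs of other types and 1.25 against the S phase cells (adjusted p 6.05e-04). It lay between 1.72 and 2.03 when each library was left out in turn.

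The Rbpj level followed the gate in steps in both induced libraries. At 3 days it was 251 CPM in cells with 0 gate UMIs, 477 with 1 to 4, 844 with 5 to 9, 1091 with 10 to 14, and then 709, 784 and 791 CPM with 15 to 24, 25 to 39 and 40 or more. At 6 days the same bins gave 225, 391, 757, 1037, 946, 842 and 780 CPM. The level was highest at 10 to 14 gate UMIs in both libraries, in bins of 40 and 60 cells, and lower above. At 6 days its interval (963 to 1116 CPM) overlapped that of 15 to 24 (893 to 1001 CPM). These intervals leave out the spread between cells, so whether the level peaks there was not tested. The 10 cells richest in Rbpj held 28.1% of its UMIs in the G2 and mitosis cells at 3 days and 17.5% at 6 days. Among cells with 0 gate UMIs it also differed by S phase transcripts: cells with 20 or more S phase UMIs stood at 375 CPM at 3 days and 320 CPM at 6 days, and cells with fewer at 129 and 156 CPM. In the control and uninduced libraries the same 2 classes stood at 18.0 and 19.7 CPM and at 10.5 and 12.5 CPM.

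**Figure D5:**
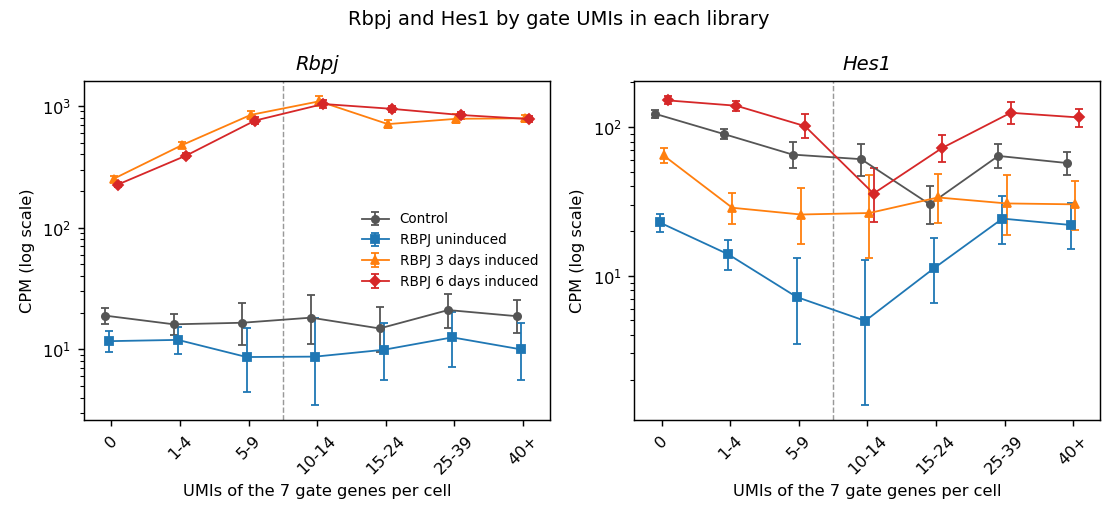
CPM on a log scale (y axes) of Rbpj (left) and Hes1 (right) by gate UMIs per cell (x axes), with 1 line per library, 95% Poisson intervals and a dashed line at the threshold of 10. Rbpj climbs with the gate at 3 days (251 to 1091 CPM at 10 to 14) and 6 days (225 to 1037 CPM) and is flat near 18 and 11 CPM in the other libraries; Hes1 is higher at 0 gate UMIs than at 10 to 14 in every library.

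Both the share of cells with Rbpj and the amount in each differed. After thinning to 4700 UMIs, 61.8% of G2 and mitosis cells at 3 days and 61.9% at 6 days had an Rbpj UMI, against 31.3% and 31.7% of reference cells. Without thinning the shares were 70.1% and 75.2% against 30.6% and 30.4%, at the median depths given above. In the control library 7.14% of thinned G2 and mitosis cells had one against 8.36% of the reference, and in the uninduced library 4.26% against 5%. Free RNA carried Rbpj too: outside the called cells, in barcodes of 10 to 100 UMIs, it stood at 17.4, 4.30, 291 and 285 CPM, near or above its level in the induced reference cells (251 and 225 CPM) and below that in the induced G2 and mitosis cells. The share of UMIs in a cell that come from free RNA was not measured, so a cell with an Rbpj UMI need not express the gene. Thinned cells with an Rbpj UMI held a mean of 5.68 of them at 3 days and 6.43 at 6 days among G2 and mitosis cells, and 3.52 and 3.19 among reference cells. A share of induced G2 and mitosis cells thus had no Rbpj UMI at this depth.

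Hes1, the target gene that answers Notch through RBPJ, did not follow Rbpj across the gate. It stood at 53.4, 16.7, 30.8 and 95 CPM in the G2 and mitosis cells and at 123, 22.9, 64.5 and 151 CPM in the reference, and was lower in the former in every library (-0.94, SE 0.0792, edgeR adjusted p 1.9e-10). The ratios were 0.434 (0.385 to 0.489), 0.729 (0.559 to 0.943), 0.478 (0.373 to 0.608) and 0.627 (0.561 to 0.701). The added term for a difference between induced and other libraries was 0.25 for Hes1 (adjusted p 1.00 in edgeR). Hes1 differed from the S phase cells by -0.29 and did not pass; those cells stood at 71.5, 13.6, 42.5 and 99.7 CPM. At 6 days Hes1 was 35.8 CPM with 10 to 14 gate UMIs, where Rbpj was highest, and 116 CPM with 40 or more.

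Of 27 tested genes of the Notch pathway and its targets (35 on the list), 2 rose (7.41%), Rbpj and Nrarp, and 4 fell (14.8%), beside 7.55% and 9.82% over all genes, so neither share stood far from the background. The call of Rbpj came from the induced libraries, since its ratio was 0.970 in control and 0.891 in uninduced. Nrarp, a feedback inhibitor of Notch, stood at 5.38, 12.3, 6.44 and 7.04 CPM against 3.11, 3.44, 2.79 and 3.24 CPM (1.26, SE 0.2, edgeR adjusted p 9.4e-06). The largest ratio of the 4 was in the uninduced library. Hes5 fell by 0.65 and Psen2, a subunit of the protease that frees the Notch fragment, by 0.72 on the log2 scale. Cd28, a costimulatory receptor on the list, stood at 10.5, 20.4, 8.13 and 11.6 CPM against 6.22, 20, 16.1 and 8.39 CPM and did not pass.

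Within the G2 and mitosis cells the libraries were then compared by the ratio of CPM, with a gene counted at 2-fold or more on log2 (CPM + 1) where either library reached 20 CPM. Both induction comparisons share the uninduced library. Uninduced against control gave 22 higher (0.42%) and 6 lower (0.115%) of 5238 genes. At 3 days against uninduced 9 were higher and 9 lower (0.174% each) of 5176, and at 6 days 8 were higher (0.157%) and 16 lower (0.313%) of 5107. The same ratio in the reference cells is given beside each.

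Hes1 was the lowest gene in uninduced against control, at 16.7 against 53.4 CPM, a ratio of 0.312 (0.244 to 0.396) against 0.186 in the reference cells. It was 1.85-fold the uninduced level at 3 days (1.36 to 2.52) against 2.82-fold in the reference, and 5.70-fold at 6 days (4.52 to 7.28) against 6.63-fold. Rbpj was 0.567 of control in the uninduced library (0.403 to 0.787). It was 77.7-fold the uninduced level at 3 days (59.2 to 104), against 21.6-fold in the reference, and 84.2-fold at 6 days (64.3 to 113), against 19.3-fold. Rbpj thus went with the group labels in the G2 and mitosis cells. The labels do not say which part of the gene is missing in the uninduced mice, so tags from the end of its transcript there need not come from an intact gene.

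Of all genes, 22 (0.42%) were higher in uninduced than in control. They held 4 of 32 immediate early genes at 20 CPM and 1 of 15 heat shock genes. They also held 8 of 11 neutrophil and monocyte genes, 4 of 7 erythroid and megakaryocyte genes and 1 of 3 natural killer and innate lymphoid genes. At 3 days 3 of 17 heat shock genes were higher and 2 of 31 immediate early genes lower than in uninduced, beside 0.174% each way over all genes. At 6 days 6 of 31 immediate early genes and 1 of 15 heat shock genes were lower, beside 0.313% over all genes. Klf2, a factor of lymphocyte quiescence on the immediate early list, was 592 CPM in uninduced against 206 CPM in control, 2.88-fold (2.70 to 3.07), with 3.66-fold in the reference, and 168 CPM at 6 days, 0.283 of the uninduced level. Atf3 was 3.92-fold higher in uninduced than in control (2.76 to 5.66). The heat shock gene Hspa1a was 12.5, 67.6, 432 and 25 CPM, so that 3 days was 6.39-fold the uninduced level (8.38-fold in the reference) and 6 days 0.370 of it. Hspa1b was 5.03-fold higher at 3 days than in uninduced. The median log2 ratio of immediate early genes in uninduced against control was 0.58 in the G2 and mitosis cells and 0.49 in the reference, beside -0.07 over all genes.

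Among the other named genes, lower in uninduced than in control were Dennd5b, a regulator of vesicle traffic (0.427), the mitochondrial subunit gene mt-Atp8 (0.463), Usp50 (0.453) and Kpna2, a nuclear import receptor (0.480, interval 0.399 to 0.575), 30% of whose transcript end occurs in other genes. In the reference cells Kpna2 was at 2.55 against 3.22 CPM. Lower at 3 days than in uninduced were Cd28 (0.399), the immediate early gene Nr4a1 (0.424), Krt18, a keratin (0.465), Dusp5, a phosphatase of ERK kinases (0.480), and Mid1, a microtubule-bound ubiquitin ligase (0.481). mt-Atp8 was 2.12-fold higher at 6 days than in uninduced. Neutrophil, erythroid, platelet and natural killer genes that passed 2-fold (S100a8, S100a9, Camp, Ly6c2, Elane, Hba-a1, Hbb-bs, Pf4, Car1, Pglyrp1 and Ccl5) had most of their UMIs in 10 cells of a library and are not read as changes of the progenitors.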

How the data were processed

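Lymphoid-primed multipotent progenitors were sorted from mouse bone marrow and profiled with 10X Genomics libraries, per the labels' protocols. The authors deposited raw UMI counts per gene and barcode (27998 genes, 737280 barcodes a library) and a table of normalized values per cell on a log2 scale (judged from the values), of which only the cell barcodes were used here. The submitters' processing notes name the build mm10 and Seurat, and the aligner and cell filter are not given in the sources used here. Counts were summed over cells with 10 or more UMIs of the 7 gate genes and over cells with 0 in each of the 4 libraries. The members and gene lists were chosen with earlier results of these data known.

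Sums were tested with edgeR 4.0.16 in R 4.3.3 (TMM scaling, filterByExpr, quasi-likelihood test, library as a block, Benjamini-Hochberg over all genes), leaving out the gate genes. Libraries share a source within a pair of sums, so the block is part of the design. Between libraries, CPM were compared as log2 (CPM + 1) with no p. Intervals are 95% exact (Poisson, conditional binomial or Clopper-Pearson) and cover counting error only. Named genes were the gate genes, up to 3 passing genes at each end of a list, the 12 highest and 12 lowest passing genes on no cycle list at a mean of 20 CPM, and 13 fixed genes. Between libraries they were the 5 highest and 5 lowest ratios, up to 2 genes each way of a list, Rbpj, Hes1 and the gate genes. On simulated counts of 10549 genes, the test recovered 26 of 40 genes changed by 1.5-fold. It recovered all 40 of those changed by 2-fold, as well as by 4-fold, 0.5-fold or 0.25-fold, and called 1 of 10349 unchanged genes. The simulation gave each gene the same proportion in every library and all genes a common dispersion, and changed only well-counted genes. Its rates therefore do not give the error rates of the test on the real sums.

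Alternatives were DESeq2 1.42.0, other scaling, no block, no low-count filter, other gates, thinning of cells to 4700 UMIs, S phase reference cells, cells without other types' markers, and leaving out each library. The filter at 20 UMIs of other types, the reference of 20 or more S phase UMIs and the term for induced against other libraries were chosen after seeing the data. Python 3.11.15, numpy 2.4.6, scipy 1.17.1, pandas 2.3.3, scanpy 1.11.5 (Scrublet) and matplotlib 3.10.9 were used. Promoter sequences came from RefSeq. Results for a few named genes are not reported here.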

Additional observations from a re-analysis of the deposited data

Results flagged for a closer look

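For 3 genes the ratio of G2 and mitosis cells to cells with 0 gate UMIs differed between the 2 induced and the 2 other libraries, by a term of the edgeR fit added after the data were seen. For Rbpj the difference was 1.88 on the log2 scale, with higher ratios in both induced libraries. For Pf4, a platelet chemokine gene, it was 7.17. Pf4 stood at 1.16, 1.37, 0.34 and 434 CPM in the G2 and mitosis cells of control, uninduced, 3 days and 6 days, so the 6-day library alone set the value, with its UMIs in 10 cells or fewer; without the uninduced library its adjusted p was 1.00 in edgeR. For the gene model Gm26737 it was 2.76, from 4.07, 0.98, 3.39 and 9.31 CPM in the G2 and mitosis cells against 21.0, 7.43, 4.66 and 6.18 CPM in the reference. Its adjusted p in edgeR was 0.66 in thinned cells and 0.21 without the 6-day library.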

How the results depend on the processing

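Genes higher in G2 and mitosis cells numbered 804 and stayed within 1.5 times of it under every alternative run. The 1045 lower genes became 654 in thinned cells and 692 with DESeq2. Without the replicate block 768 were higher and 976 lower, and leaving out each library gave 782 to 815 and 943 to 1084. No paired analysis was possible because the comparisons between groups have 1 library on each side. Against cells with 20 or more S phase UMIs, 399 of 624 higher and 543 of 1031 lower genes outside the cycle lists kept their call, and in thinned cells 439 and 514 did.

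The share of G2 and mitosis cells (control, uninduced, 3 days, 6 days) was 24.5%, 20.4%, 25.3% and 22.3% at 5 or more gate UMIs, 13.1%, 9.97%, 12.8% and 11.6% at 20 or more, 12.7%, 11.9%, 12.8% and 11.9% in thinned cells, 10.7%, 11.6%, 12.1% and 12.9% without cells of other types, and 17.8% in control with a gate of 0.1% of UMIs.

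Between libraries, the 22 genes higher in uninduced than in control became 39 at 10 CPM, 14 at 50 CPM, 14 without cells of other types, 9 without cells holding 20 such UMIs and 11 in the reference cells. The 6 lower became 12 at 10 CPM, 12 in thinned cells and 15 without cells of other types. At 3 days the 9 higher became 21 at 10 CPM, 28 in thinned cells and 25 without cells of other types. The 9 lower became 5 with a pseudocount of 5, 25 at 10 CPM, 16 at 20 or more gate UMIs, 25 in thinned cells, 27 without cells of other types and 5 without cells holding 20 such UMIs. At 6 days the 8 higher became 21 at 10 CPM, 4 at 50 CPM, 5 at 5 or more gate UMIs and 15 in thinned cells. The 16 lower became 28 at 10 CPM, 28 at 20 or more gate UMIs, 10 without cells of other types, 9 without cells holding 20 such UMIs and 7 in the reference cells. The 3 genes of the added term became 7 without cells holding 20 such UMIs, 10 in thinned cells, 5 with the S phase reference, 5 at 5 or more gate UMIs, and 2 to 60 when a library was left out, the 60 without the 6-day library and 25 without the 3-day library.

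Signs that turned were mostly those of genes held by few cells. In uninduced against control, Ccl5 was -0.22 in the reference cells. At 3 days Hbb-bs was 0.017 and Hba-a1 0.33, 0.85 and 1.84 under alternatives that change or drop those cells, and Rsad2 was -0.099 in the reference cells. At 6 days Pf4 was -0.90, -1.45 and -1.04, Ly6c2 0.64, 0.51 and 1.44, Pglyrp1 0.26, and Camp 0.044, 0.15 and 0.73. Against cells with 0 gate UMIs, Pf4 was -0.022 with DESeq2, Camp -0.69, -0.30 and -0.20, and Ngp -0.51, -0.35 and -0.30. Against the S phase reference Mthfd2 was -0.049, Klrd1 0.44, Ccr9 0.42 and Ifit1 0.66. The cause was not tested.

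With 1 library a group, no value between groups carries the spread between animals, and counts there leave out genes under 20 CPM in both libraries. CPM are relative: G2 and mitosis cells held more UMIs per cell than the reference, so a lower CPM does not give fewer molecules per cell. The reference mixes cells in G1, at rest and in S phase.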
